A study of Rattus norvegicus with 9 samples.

Results

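ENSRNOG00000050647, ENSRNOG00000045654 and ENSRNOG00000067483 are 3 protein-coding rat genes that the deposited table lists by identifier alone, with no symbol. They are 3 of the 1285 rows named by identifier alone among 12854 rows in all. They were chosen from their measured values, because their RNA was low in whole blood that had been in contact with a gelatin sponge (GS), so both comparisons with GS are given below as a description with no test. ENSRNOG00000050647 and ENSRNOG00000045654 occupy the same interval of chromosome 20 on opposite strands, and ENSRNOG00000067483 is a short gene on chromosome 1.

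RNA of fresh rat whole blood was sequenced in 9 libraries. The DNAgel group was incubated for 15 min with DNAgel, a hydrogel of salmon sperm DNA crosslinked with polyethylene glycol diacrylate, the GS group was incubated for 15 min with a commercial gelatin sponge, and the Control was untreated blood, with 3 libraries each. The labels give no incubation time for the Control, so time cannot be told apart from material in comparisons with it. The rats of the study were male Sprague-Dawley animals aged 6 weeks, although the sequencing methods do not describe the blood donors. No source says if a group's libraries were from different rats, so p-values here reflect the spread among these libraries and no more, and that spread may be technical. Each row of the deposited table holds, per library, an estimated count and a value in FPKM, a unit scaled for transcript length and library total. Levels set between groups are in CPM, counts scaled to a common library total after TMM correction for composition.

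Total counts were 51838917 to 68076324 per library, of which the 9 hemoglobin rows held 95.0% to 96.4%, leaving 2344910 to 3216776 counts for all other rows. In each of the 9 libraries 4 was the commonest nonzero count, so 1 count need not stand for 1 fragment. The markers fixed for red cells, platelets, neutrophils, monocytes, T cells and B cells had counts in each list (4 of 5 found for red cells, 5 of 5 for each other cell type), and those of tissues outside blood summed to at most 0.174 CPM (2 of 5 found). The summed level of the red cell markers was 358230 to 390350 CPM with GS, 257020 to 294030 CPM with DNAgel and 236960 to 321990 CPM in the Control. This sum was thus higher in every GS library, and its part in the results below was not tested. The share of all 9 hemoglobin rows did not separate GS from DNAgel. It was 95.9% to 96.4% with GS, 95.4% to 96.0% with DNAgel and 95.0% to 95.8% in the Control. The platelet sums overlapped between all groups (220 to 297 CPM in GS and 243 to 301 CPM in the other libraries), as did those of monocytes (9.21 to 16.8 CPM over the 9 libraries) and B cells (1.99 to 4.42 CPM). The neutrophil sums were 11.2 to 12.3 CPM with DNAgel and 7.84 to 10.7 CPM in the Control, and thus did not overlap in that comparison, while they were 8.68 to 11.2 CPM with GS. The T cell sums were 0.874 to 1.27 CPM with DNAgel, 1.05 to 1.23 CPM with GS and 1.39 to 1.71 CPM in the Control, above both other groups. The part of these differences in the results was not tested either. In RNA of whole blood, fewer cells of a type and less RNA per cell cannot be told apart.

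The rows' own annotation points to 2 protein families. The 70-kDa heat shock proteins are ATP-driven chaperones that bind unfolded segments of other proteins. The constitutive member Hspa8 works in every cell, while inducible members are transcribed within minutes when the heat shock factor binds GAA repeats in their promoters. Ferritin is a hollow shell of heavy and light chains, encoded by Fth1 and Ftl1, that stores iron as ferric oxide, and it is abundant in maturing red cells. Mammalian genomes hold many processed copies of both ferritin genes.

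ENSRNOG00000050647 lies on the plus strand of chromosome 20 from 3856006 to 3873240 in the coordinates of the table, for which no rat genome build is named. It has 2 transcripts in the table over a span of 17235 bases. Its KEGG text holds 11 pathways, among them spliceosome, MAPK signaling, protein processing in the endoplasmic reticulum, endocytosis, antigen processing and presentation, and estrogen signaling. The same 11 pathways stand in 4 other rows of the table, namely Hspa8, Hspa2, Hspa1l and ENSRNOG00000005811. ENSRNOG00000045654 lies on the minus strand from 3856006 to 3873227, has 1 transcript and no KEGG text, and lies within the plus-strand gene over all of its 17222 bases. The GO text of both rows was not used here. ENSRNOG00000067483 lies on the plus strand of chromosome 1 from 23638268 to 23638719, a span of 452 bases with 1 transcript. Its 3 GO terms are iron ion transport, cellular iron ion homeostasis and ferric iron binding, and it has no KEGG text. The table does not give exon borders.

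None of the 3 identifiers (0 of 3) was matched in the RefSeq tables, so no sequence of the genes themselves is shown. The named rows on either side of the chromosome 20 pair are Hspa1l, a heat shock protein gene of the germ line, and Neu1, which encodes a lysosomal sialidase. In the RefSeq annotation of GRCr8, the entries between Hspa1l and Neu1 are, in order, Hspa1a, Hspa1b, LOC102549726, Snord48 and Snord52. No row of the table carries any of these 5 names, and no identifier ties them to the pair, so neither row is given a name from this order. Stretches of 300 bases from RefSeq (GRCr8, both on the plus strand, 250 bases before to 50 after the start) are shown for context: that of Hspa1a, as the first RefSeq entry after Hspa1l on chromosome 20, and that of Hspa8 on chromosome 8, as the most highly counted of the rows with the same pathways, picked after its values were seen. Capitals mark GAANNTTC, the core of a heat shock element, which reads the same on both strands.
Hspa1a: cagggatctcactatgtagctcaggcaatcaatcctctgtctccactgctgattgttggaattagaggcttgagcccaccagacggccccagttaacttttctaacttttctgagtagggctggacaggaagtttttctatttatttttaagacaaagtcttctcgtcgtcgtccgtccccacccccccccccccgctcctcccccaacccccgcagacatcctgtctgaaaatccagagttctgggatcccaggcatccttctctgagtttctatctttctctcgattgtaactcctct
Hspa8: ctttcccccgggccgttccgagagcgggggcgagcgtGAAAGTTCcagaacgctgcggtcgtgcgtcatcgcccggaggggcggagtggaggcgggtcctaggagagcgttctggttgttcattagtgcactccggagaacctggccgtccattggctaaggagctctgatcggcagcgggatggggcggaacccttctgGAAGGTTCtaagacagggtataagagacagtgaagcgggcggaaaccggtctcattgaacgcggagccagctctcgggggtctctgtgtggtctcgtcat
The Hspa8 stretch held 2 matches, whose first bases lie 213 and 50 bases before the start, and the Hspa1a stretch held 0. Of 33469 such stretches in the RefSeq table, 8.59% held at least 1 match and 0.517% held 2 or more. A match is a description of the letters and not of a bound site. Only GAANNTTC was searched, and only in these stretches, so 0 matches does not show that a gene lacks heat shock elements.

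ENSRNOG00000050647 was the most highly counted of the 3 genes. Its estimated counts were 235, 221 and 323 in Control replicates 1 to 3, 203, 189 and 192 in DNAgel replicates 1 to 3, and 44, 76 and 41 in GS replicates 1 to 3. All GS libraries lay below all others, and the highest GS count (76, replicate 2) stood far below the lowest count elsewhere (189, DNAgel replicate 2). The FPKM values were 0.801, 0.760 and 1.14 in the Control, 0.679, 0.824 and 0.648 with DNAgel, and 0.151, 0.266 and 0.157 with GS. On the CPM scale its level was 3.70 ± 0.565 (SD, n = 3) in the Control, 3.11 ± 0.189 with DNAgel and 0.892 ± 0.256 with GS. The GS mean was 24.1% of the Control mean and 28.7% of the DNAgel mean.

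ENSRNOG00000045654, on the opposite strand, had counts of 111, 146 and 93 in the Control, 114, 98 and 94 with DNAgel, and 23, 40 and 22 with GS (replicates 1 to 3 in each). The GS group did not overlap with the others here either, and GS replicate 2 was again its highest library. The FPKM values were 0.575, 0.764 and 0.503 in the Control, 0.582, 0.650 and 0.483 with DNAgel, and 0.119, 0.213 and 0.127 with GS. Its level was 1.68 ± 0.437 CPM (SD, n = 3) in the Control, 1.63 ± 0.202 CPM with DNAgel and 0.471 ± 0.133 CPM with GS, so the GS mean was 27.9% of the Control mean and 28.9% of the DNAgel mean.

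ENSRNOG00000067483 had counts of 48, 71 and 57 in the Control, 53, 55 and 71 with DNAgel, and 0, 0 and 0 with GS (replicates 1 to 3 in each). Its FPKM values were 2.40, 3.60 and 2.93 in the Control, 2.60, 3.51 and 3.52 with DNAgel, and 0 in each GS library. Per length it was therefore the most abundant of the 3 genes in the Control and DNAgel groups and the lowest with GS. Its level was 0.841 ± 0.163 CPM (SD, n = 3) in the Control and 0.949 ± 0.113 CPM in the DNAgel group. Because 4 was the commonest nonzero count, although smaller ones occur, the limit that a group of 0 counts allows was set at 12 counts over the group. Against that limit the gene was at least 14.1-fold higher with DNAgel and at least 12.5-fold higher in the Control than with GS, where the limit reflects counting error alone.

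**Figure D1:**
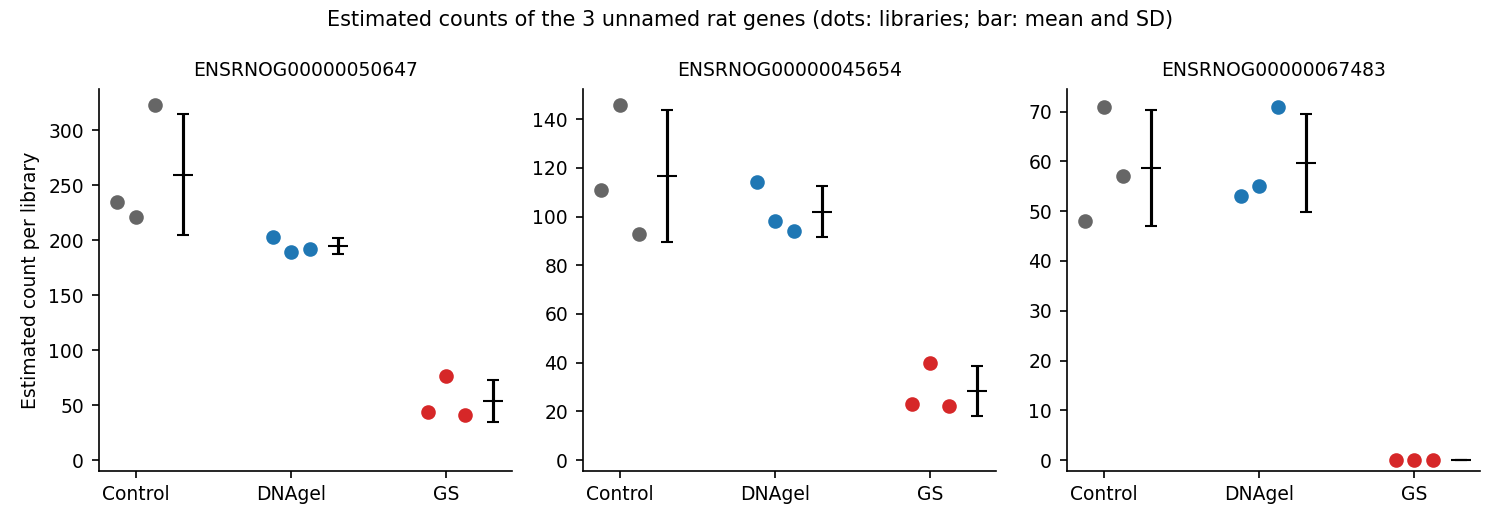
Estimated count per library (y axis, linear, separate scale for each gene) of the 3 genes in the Control, DNAgel and GS groups. Dots are the 3 libraries of a group, and the bar beside them is the mean with the SD; the GS libraries sit below all others, at 41 to 76, 22 to 40 and 0 counts.

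For all 3 genes every GS library was below all 6 others on the CPM scale. This held for 156 of the 3561 tested genes, or 4.38%, but the 3 genes were chosen for being low in GS, so nothing is read from their count. Tested genes are those with FPKM over 0.1 in at least 3 libraries, and ENSRNOG00000067483 passed through the Control and DNAgel libraries alone. By the GS mean as a share of the mean of the other 6 libraries, ENSRNOG00000067483 was 1 of 6 of these 156 genes at 0%, ENSRNOG00000050647 ranked 38 (26.2%) and ENSRNOG00000045654 ranked 48 (28.4%). Other genes of the 156 were thus lower in GS, relative to the other groups, than the chromosome 20 pair.

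The comparison that the choice of genes did not use is DNAgel against Control, which asks whether blood in contact with DNAgel differed from untreated blood. None of the 3 genes passed this test. For ENSRNOG00000050647 the log2 fold change was −0.25 (SE, the standard error, 0.22, 95% interval −0.69 to 0.18, edgeR's quasi-likelihood test, adjusted p = 0.994). The libraries of both groups overlapped on the CPM scale, narrowly, with 2.89 to 3.24 with DNAgel and 3.20 to 4.31 in the Control, and the exact two-sided permutation test gave p = 0.2, where 3 libraries against 3 can give no p below 0.1. ENSRNOG00000045654 had a log2 fold change of −0.05 (SE 0.29, 95% interval −0.61 to 0.52, edgeR, adjusted p = 0.994), with an exact permutation p of 0.9. Its sign turned without Control replicate 2 (0.15) or DNAgel replicate 3 (0.05). ENSRNOG00000067483 had a log2 fold change of 0.17 (SE 0.35, 95% interval −0.51 to 0.86, edgeR, adjusted p = 0.994), with an exact permutation p of 0.4. The test leaves differences within these intervals undecided.

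Over all 3561 tested genes, edgeR called 0 (0%) for DNAgel against Control at an adjusted p under 0.05, while 54 genes were higher and 81 were lower with unadjusted p-values under 0.05. By contrast DESeq2 called 5 and limma on log2(FPKM + 0.1) called 1. For orientation, the 2 comparisons with GS called 29 genes higher in DNAgel than in GS (0.814%) and, against Control, 22 genes lower (0.618%) and 1 gene higher (0.0281%) in GS. These shares over all tested genes include the 3 genes chosen for being low in GS.

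The strands of the chromosome 20 interval were counted in a steady proportion in most libraries. The minus-strand gene held 32.1%, 39.8% and 22.4% of the summed count of the pair in Control replicates 1 to 3. It held 36.0%, 34.1% and 32.9% in DNAgel replicates 1 to 3, and 34.3%, 34.5% and 34.9% in GS replicates 1 to 3. The spread was thus widest in the Control (SD 8.73 percentage points, n = 3) and narrowest with GS (SD 0.307 percentage points), although the GS group had the fewest counts. The summed count of the pair was 376 ± 35.9 (SD, n = 3) in the Control, 297 ± 17.6 with DNAgel and 82.0 ± 29.5 with GS. Per length, the FPKM of the minus-strand gene was 0.441 to 1.01 times that of the plus-strand gene over the 9 libraries.

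**Figure D2:**
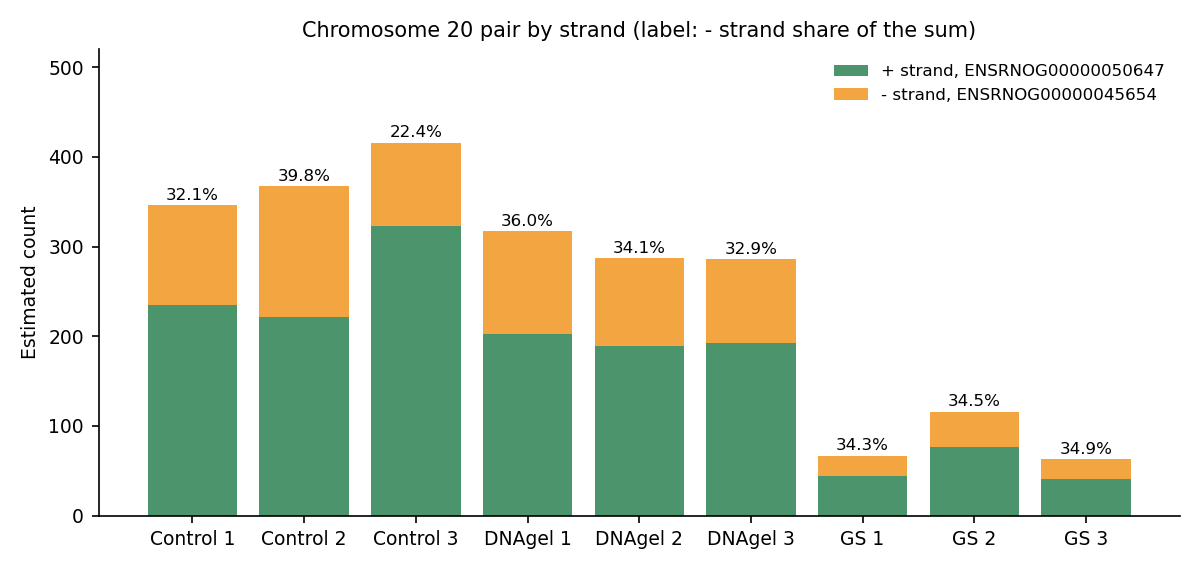
Estimated counts of the chromosome 20 pair in each of the 9 libraries (y axis, linear), stacked by strand. The label above each bar is the share of the minus-strand gene in the sum; it lies between 32.1% and 36.0% except in Control replicates 2 (39.8%) and 3 (22.4%).

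Other rows that overlap on opposite strands show what such counts can hold. The library protocol marks the strand of the RNA, but whether the counting used strand is not given in the sources used here, so reads of a gene and its opposite-strand partner cannot be told apart with certainty. The table holds 998 overlapping pairs on opposite strands, of which 74 have a mean count of at least 20 in both rows. In 1 of these 74, the chromosome 20 pair, every GS library was below all 6 others in both rows, a count that follows from how the genes were chosen. Only 6 of the 74 pairs overlap over at least 90% of both rows. In 1 of these 6, Ppial4d (ENSRNOG00000068764) and ENSRNOG00000066636 on chromosome 14, the counts of the plus and minus rows were identical in all 9 libraries, from 33 in both rows in GS replicate 2 to 156 in both rows in DNAgel replicate 2. Over the other 4 of these pairs, the minus-strand share varied by 9.19 to 98.9 percentage points between libraries, beside 17.4 percentage points for the chromosome 20 pair. Ppial4d and its partner were chosen with their values known.

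Most of the named rows around the chromosome 20 pair had too few counts to be tested. Hspa1l ends 435 bases before the pair and had counts of 0, 5 and 22 in the Control, 8, 13 and 5 with DNAgel, and 25, 4 and 0 with GS (replicates 1 to 3 in each). These values overlapped between all groups and gave a mean of 8.67 to 9.67 per group, under the filter on low FPKM. Lsm2, which encodes a subunit of a ring that binds U6 small nuclear RNA, lies 8740 bases before the pair and had 0 to 15 counts per library. Vars1, the cytosolic valyl-tRNA synthetase, lies 35708 bases before it and had 0 to 19 counts. On the other side, Neu1 begins 24240 bases after the plus-strand gene and had a mean of 9.0 ± 3.61 counts (SD, n = 3) in the Control, 6.33 ± 6.51 with DNAgel and 2.0 ± 3.46 with GS. Ehmt2, a histone H3 lysine 9 methyltransferase, had 15.3 ± 3.21, 9.33 ± 10.1 and 4.67 ± 4.16 counts in the same order. Nelfe, a subunit of the complex that holds RNA polymerase II near start sites, was the only one of these 6 neighbours above the filter, with 13.0 ± 19.2 counts in the Control, 21.3 ± 2.31 with DNAgel and 2.67 ± 4.62 with GS. Nelfe did not pass the test for DNAgel against GS (log2 fold change 2.95, edgeR, adjusted p = 0.649) or for GS against Control (−2.01, edgeR, adjusted p = 0.795).

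Within 150 kb on either side, the table holds 16 named rows, of which 6 were tested and 0 were lower in every GS library than in all 6 others. Beside Nelfe these were Csnk2b, Ly6g6d, Ly6g6c, Mpig6b and Clic1, and none of the 6 passed any of the 3 comparisons. Csnk2b, the regulatory subunit of casein kinase 2, had a log2 fold change of 0.06 for DNAgel against GS (edgeR, adjusted p = 0.977). Mpig6b, a platelet receptor that restrains activation, had −0.60 (edgeR, adjusted p = 0.819).

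**Figure D3:**
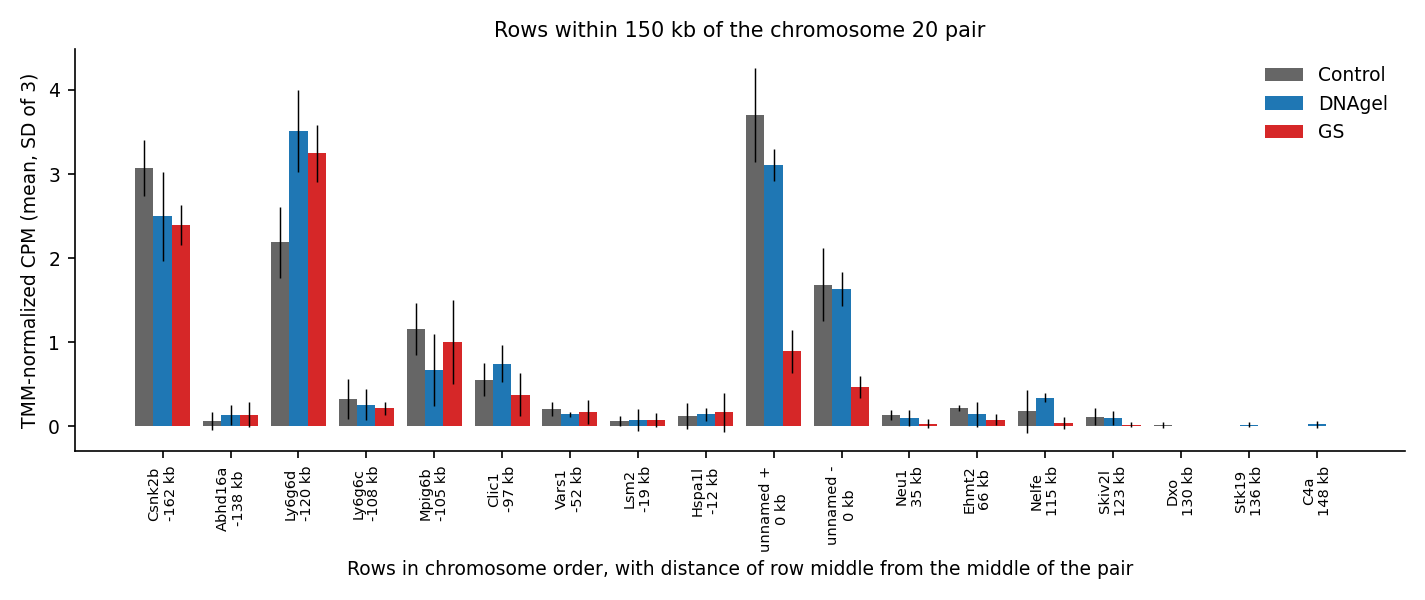
TMM-normalized CPM (y axis, linear, mean with SD of 3 libraries) of the rows within 150 kb of the chromosome 20 pair, in chromosome order, by group. Values are to be compared between groups within a row, not between rows. The GS bar lies far below the other 2 bars in the unnamed plus and minus rows. Csnk2b, for example, has 3.07, 2.50 and 2.39 CPM in Control, DNAgel and GS. Rows near 0 go both ways in the same order, such as Nelfe (0.176, 0.342 and 0.0416 CPM) and Hspa1l (0.122, 0.141 and 0.165 CPM).

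The neighbours of ENSRNOG00000067483 are far away and mostly near 0. The nearest named row before it, Sgk1, which encodes a serum- and glucocorticoid-induced kinase, ends 539985 bases away and had 0 counts in the DNAgel group, 4.0 ± 4.0 (SD, n = 3) with GS and 5.0 ± 5.57 in the Control. Both rows of Tbpl1, a relative of the TATA-binding protein, had 0 to 20 counts per library. After it, Nkain2 begins 1030743 bases away, with 0 to 4 counts per library, followed by Rnf217, with 0 to 8 counts. Tpd52l1, which belongs to a family of proteins in vesicle traffic and lies 2533451 bases away, was the only one of these 6 rows above the filter. It was not low in GS, with 71.3 ± 5.86 counts there, 61.0 ± 16.1 with DNAgel and 50.7 ± 10.2 in the Control (DNAgel against GS: log2 fold change −0.32, edgeR, adjusted p = 0.831). Of the 12 neighbouring named rows of the 3 genes, 2 were tested and 0 were called in any comparison.

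ENSRNOG00000067483 is 1 of 15 rows whose GO text holds both iron ion transport and ferric iron binding, a list chosen after the data were seen. The other 14 include Fth1, 3 rows named Ftl1, Fthl17a and 9 rows with clone or gene identifiers in place of a symbol, and 4 of them have exactly the same 3 GO terms and no others. The sequences of these rows were not compared. Where rows are copies of 1 gene, the authors' counting could split reads among them, so their counts are uncertain. Fth1 and the most abundant Ftl1 row (ENSRNOG00000064385) had mean levels of 706 and 208 FPKM with GS and 1036 and 330 FPKM in the Control, so ENSRNOG00000067483, at 2.98 FPKM in the Control, is a minor row of the family. Per 10000 counts of the other 14 rows it had 3.42 to 5.83 counts in the Control libraries and 5.24 to 6.51 in the DNAgel libraries, and 0 in each GS library.

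The other ferritin rows were not at 0 in GS as a group, a contrast that the choice of ENSRNOG00000067483 by its GS value fixes. Their summed level was 1914 ± 269 CPM (SD, n = 3) in the Control, 1653 ± 313 CPM with DNAgel and 1420 ± 208 CPM with GS. The GS sums (1232 to 1644 CPM) lay below all Control sums (1752 to 2224 CPM), and the exact two-sided permutation test gave p = 0.1, the smallest p that 3 libraries against 3 allow, so this design cannot reach 0.05. The GS and DNAgel sums overlapped (exact permutation p = 0.3). Among the 13 tested rows other than ENSRNOG00000067483, the GS mean was 50.2% to 82.4% of the mean of the other 6 libraries, with a median of 70.2%.

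Of these 13 rows, 0 were called for DNAgel against GS, 0 for DNAgel against Control and 1 for GS against Control by edgeR, with backgrounds of 0.814%, 0% and 0.646% over all tested genes. The 1 row was ENSRNOG00000033776 on chromosome 6, also without a symbol, with a log2 fold change of −1.01 (edgeR, adjusted p = 0.0353). This row was chosen with its value known. ENSRNOG00000064482 on chromosome 5, a row of 911 bases with the same 3 GO terms, also reached 0 in a single library. It had 0 counts in GS replicate 1, 899 and 521 in GS replicates 2 and 3, and 417 to 1398 in the other 6 libraries, and it was likewise picked afterwards. It was not called in any comparison.

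**Figure D4:**
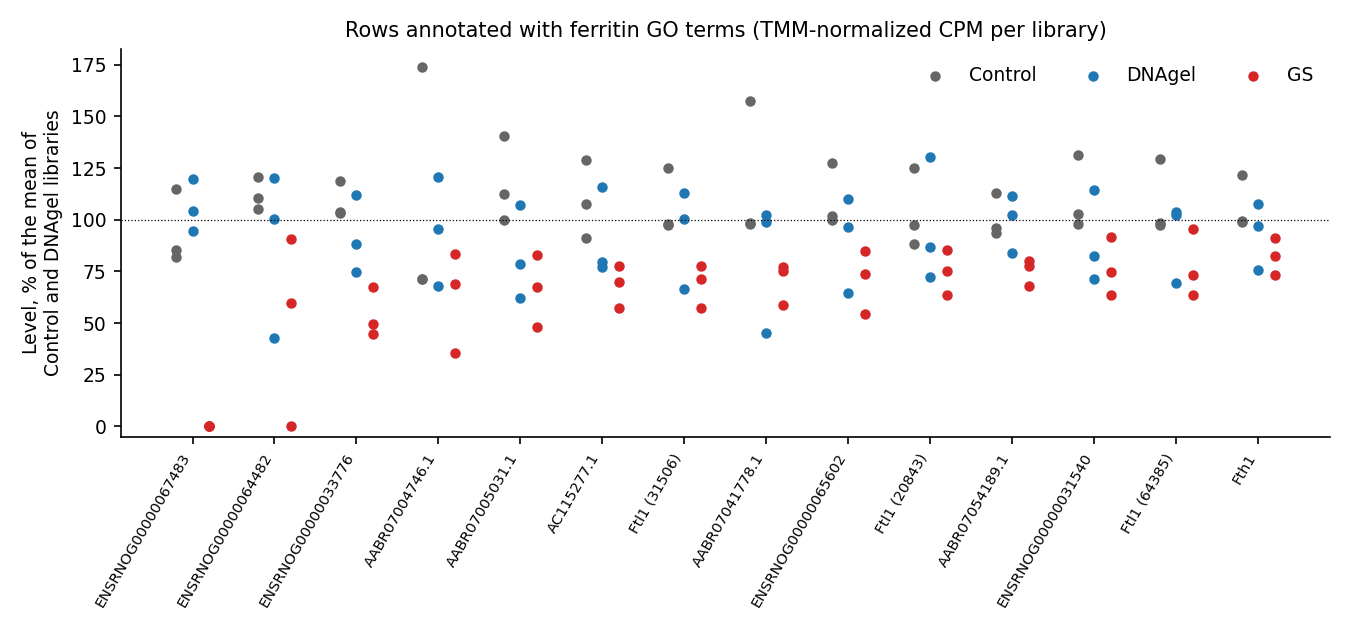
Level of each tested row with ferritin GO terms in each library (y axis, linear, percent of the mean of the 6 Control and DNAgel libraries, from TMM-normalized CPM). Dots are libraries coloured by group and the dotted line is 100%; ENSRNOG00000067483 is at 0% in the 3 GS libraries, while the GS means of the other rows lie between 50.2% and 82.4%.

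Counts of 0 in a whole group are given as a description, since ENSRNOG00000067483 was chosen for its low value in GS, and nothing is read from them. Of 1504 rows with at least 40 counts in each of the 6 Control and DNAgel libraries, 1 was at 0 in all GS libraries, namely ENSRNOG00000067483. Of 1379 and 1415 rows defined in the same way for the Control and the DNAgel group, 0 were at 0 in that group. The same counts of 1, 0 and 0 were found at a minimum of 20 counts.

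The 4 other rows with the 11 pathways of ENSRNOG00000050647 form a list chosen after the data were seen. Hspa8, the constitutive member, had counts of 214, 225 and 350 in the Control, 258, 212 and 236 with DNAgel, and 110, 159 and 69 with GS (replicates 1 to 3 in each). All its GS libraries were below all others, and its level was 3.74 ± 0.814 CPM (SD, n = 3) in the Control, 3.75 ± 0.312 CPM with DNAgel and 1.87 ± 0.628 CPM with GS. Its log2 fold change was 1.0 for DNAgel against GS (standard error 0.25, edgeR, adjusted p = 0.12) and 0.01 for DNAgel against Control (edgeR, adjusted p = 0.996), so it did not pass. Per length the order in the Control was Hspa8 at 1.51 FPKM and ENSRNOG00000050647 at 0.900 FPKM. Hspa2, Hspa1l and ENSRNOG00000005811 had mean levels of 0.0491 to 0.151 FPKM in the Control, with 0 of the 3 lower in every GS library.

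A list labelled cytosolic heat shock proteins had 20 rows, which need not all belong to that class. Of these rows, 13 were tested and 0 were called in any of the 3 comparisons. For DNAgel against GS the 13 rows had a median of 0.10 on the log2 scale, beside 0.04 over all tested genes. Hsp90aa1, an inducible chaperone of signaling proteins, had a log2 fold change of 0.05 for DNAgel against GS (edgeR, adjusted p = 0.987), Dnaja1, a cochaperone of the 70-kDa proteins, 0.36 (edgeR, adjusted p = 0.765) and Dnajb6, another such cochaperone, 0.14 (edgeR, adjusted p = 0.897). A list of endoplasmic reticulum chaperones also named the stress genes Herpud1, Xbp1, Atf4 and Ddit3. Of its 11 tested genes, 1 was higher in DNAgel than in GS and 1 was lower in GS than in Control. In both cases this was Hspa5, the main chaperone of that compartment (edgeR, log2 fold change 1.91 with adjusted p = 0.00262 and −1.94 with adjusted p = 0.00368). The medians of the list were 0.77 and −0.50. Over all tested genes the shares called were 0.814% higher in DNAgel than in GS and 0.618% lower in GS than in Control, beside 9.09% of this list in each case. Of 18 tested immediate-early genes, which cells switch on within minutes, 6 were higher in DNAgel than in GS (Fos, Jun, Fosb, Klf6, Cebpb and Zfp36) and 3 were lower in GS than in Control (Fos, Jun and Zfp36), or 33.3% and 16.7% beside the same 0.814% and 0.618%, with medians of 2.13 and −1.92 on the log2 scale. Of 7 tested RT1 genes, the rat histocompatibility genes that share chromosome 20 with the pair, 0 were called in any comparison (median −0.04 for DNAgel against GS). The 0 calls in these lists rest on edgeR.

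The named genes whose pattern was most like that of the 3 genes were found by Pearson correlation of log2(CPM + 0.1) over the 9 libraries, among 784 named rows with a mean FPKM of at least 1. For ENSRNOG00000050647 these were Capza2 (r = 0.964), Fos (r = 0.960), Hspa8 (r = 0.932), Hspa5 (r = 0.926) and Ptma (r = 0.914). For ENSRNOG00000045654 they were Fos (r = 0.969), Hspa5 (r = 0.951), Capza2 (r = 0.938), Rps20 (r = 0.928) and H3f3a (r = 0.921). For ENSRNOG00000067483 they included Sat1 (r = 0.952), H3f3a (r = 0.945), Hspa5 (r = 0.944) and Fos (r = 0.927). Fos, a subunit of the transcription factor AP-1, and Hspa5 thus stood in all 3 lists. The points share libraries and depth, and each of these genes was lower in every GS library than in all 6 others, so the 9 points fall into 2 clusters and r carries mainly that gap.

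Among the 6 Control and DNAgel libraries alone, the likeness was uneven. Hspa5 had r = 0.987 with ENSRNOG00000045654, −0.425 with ENSRNOG00000050647 and 0.158 with ENSRNOG00000067483. Each value rests on 6 points, and Hspa5 was picked with its values known. The other genes listed for ENSRNOG00000045654 had r = 0.882 (Rps20), 0.644 (Fos), 0.096 (Capza2) and 0.084 (H3f3a) with it. The 3 genes also differed from each other there. ENSRNOG00000050647 had r = −0.477 with its opposite-strand partner and −0.803 with ENSRNOG00000067483, while over all 9 libraries these values were 0.941 and 0.952. Within the 6 libraries, Control replicate 3 was the highest library of ENSRNOG00000050647 (4.31 CPM) and the lowest of its partner (1.24 CPM).

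Rows named by identifier alone were not in general low in GS. Of the 369 tested rows of this kind other than the 3 genes, 2 were higher in DNAgel than in GS and 2 were lower in GS than in Control by edgeR (0.542% in each case, beside 0.814% and 0.618% over all tested genes), and 0 were called for DNAgel against Control. The shares over all tested genes include the 3 genes, so they are not an exact match for the 369 rows. ENSRNOG00000066746 on chromosome 5, whose GO text names glyceraldehyde-3-phosphate dehydrogenase activity, was called in both comparisons (log2 fold changes 0.94 and −0.97). ENSRNOG00000070004 on chromosome X, annotated as a constituent of the ribosome, was called for DNAgel against GS alone (1.25), and ENSRNOG00000033776, the ferritin row above, for GS against Control alone. These rows were chosen with their values known, and the difference between the 2 comparisons was not tested. The median log2 fold change of the 369 rows was 0.11 for DNAgel against GS and −0.01 for GS against Control, beside 0.04 and −0.04 over all tested genes.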

How the data were processed

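Whole blood RNA of rats was measured in 9 libraries, 3 per group. The authors deposited 1 table with an estimated count (whole numbers, unscaled) and an FPKM value (scaled for length and library total) per row and library. Tools listed in the submitters' notes are HISAT2 2.0.4 and StringTie 1.3.4d, beside cutadapt 1.9, edgeR, DESeq2 and UMI-tools, with roles and order not given in the sources used here. They name a mouse build while the table holds rat identifiers, so coordinates are those of the table. The members, gene lists and rules were chosen with earlier results of these data known.

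Estimated counts were tested with edgeR 4.0.16 in R 4.3.3 (quasi-likelihood test after TMM scaling, robust estimates, 1 fit of all 9 libraries without a block) over rows with FPKM over 0.1 in at least 3 libraries, with Benjamini-Hochberg adjustment over 3561 genes and 0.05 as the threshold. The step was run on simulated counts for DNAgel against Control alone, with the outcome not reported here. Intervals are 95% normal approximations. Genes were named if they were members, the 3 nearest named rows on each side, the 5 most alike by correlation (1 is not reported here), or called or most abundant in a list. Alternatives were DESeq2 1.42.0, limma 3.58.1 on log2(FPKM + 0.1), with 0.01 and 1 as other pseudocounts, other scalings and filters, a replicate block, 2 groups alone, counts divided by 4, and each library left out.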

Additional observations from a re-analysis of the deposited data

How the results depend on the processing

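For DNAgel against Control the 3 genes passed no test under the alternatives run, which were 20 for ENSRNOG00000067483 and 19 for each gene of the chromosome 20 pair (both lie under a mean FPKM of 1, so that filter gave no value). The lowest adjusted p over these was 0.841, 0.982 and 0.978 for ENSRNOG00000050647, ENSRNOG00000045654 and ENSRNOG00000067483 by the tool of each alternative (edgeR, DESeq2 or limma). Leaving out each library gave log2 fold changes of −0.35 to −0.13, −0.22 to 0.15 and 0.08 to 0.34 in the same order. The sign of ENSRNOG00000045654 turned without Control replicate 2 (0.15) and without DNAgel replicate 3 (0.05), and no other direction turned. As a share of the DNAgel mean, the GS level stayed between 23.9% and 31.3% for ENSRNOG00000050647 and 24.2% and 31.3% for ENSRNOG00000045654 when a library was left out, and as a share of the Control mean between 20.1% and 26.3% and between 23.4% and 32.0%. With other scalings or FPKM it moved by less than the spread between libraries. These settings were chosen after the data were seen. No called neighbour was found (0) under DESeq2 or without any library.

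The count of genes called over the whole table depended on the processing. For DNAgel against GS it was 29, and 63 with DESeq2, 12 and 17 with limma at pseudocounts of 0.01 and 1, 50 with no filter, 10 at a mean FPKM of at least 1, 14 with a replicate block and 7 with only the 2 groups compared. It was 8 to 28 when a library was left out, with 8 without DNAgel replicate 1 or 2 and 10 without GS replicate 1. For GS against Control it was 23, and 53 with DESeq2, 46 with no filter, 11 at a mean FPKM of at least 1, 9 with a replicate block and 6 with only the 2 groups. It was 4 to 24 when a library was left out, with 4 without Control replicate 1 or 2, 7 without Control replicate 3 and 5 without GS replicate 1. For DNAgel against Control it was 0, and 5 with DESeq2, 1, 4 and 2 with limma at pseudocounts of 0.1, 0.01 and 1, 1 with no filter and 2 at a mean FPKM of at least 1, and 0 when any library was left out. The cause of these changes was not tested. No source says that equal replicate numbers mark a pair. Same-numbered libraries deviated together with correlations of −0.14 to 0.13. Libraries of different numbers were not compared, so these values cannot decide whether equal numbers mark a pair. With the replicate block the 3 genes had log2 fold changes of −0.26, −0.02 and 0.18 for DNAgel against Control. Limma on log2(FPKM + 0.1) moved the median of all genes to 0.11 for DNAgel against GS, −0.07 for DNAgel against Control and −0.17 for GS against Control.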
